A study of Homo sapiens with 2 samples.

Results

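The genes described here are the human ZNF genes, numbered zinc finger genes, whose array signal passed a level limit in A549 lung adenocarcinoma cells with and without silencing of p62/SQSTM1. A gene was taken if its probe set carried exactly 1 gene symbol in the platform annotation, if that symbol was ZNF followed by a number and at most 1 letter, and if the higher of its 2 log2 values was 5.35 or more. The limit of 5.35 equals the median of the named probe sets' values. Of 471 such genes on the array, 242 (51.4%) met it, out of 7896 of 14884 named genes in all (53.1%). Of the 242, 240 are protein-coding and 2 are transcribed pseudogenes. The genes were thus chosen by their measured levels, and the number above the limit is a description, not a finding. 

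A549 is a long-established line of human lung adenocarcinoma cells. Cells were transfected either with a control siRNA (siCONTROL) or with an siRNA against p62/SQSTM1 (siP62), the gene of a ubiquitin-binding receptor of selective autophagy, and total RNA was taken at 24 hours. Each RNA was read on 1 Affymetrix whole-transcript array, so each group held 1 sample. The spread within a group is unknown and differences carry no test. Each difference below is the log2 value of the siP62 array minus that of the siCONTROL array. SQSTM1 itself went from 8.64 with siCONTROL to 7.30 with siP62, which left 39.5% of the control level.

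ZNF genes make up the largest group of human genes for DNA-binding proteins. Most encode tandem C2H2 zinc fingers, small folds held by a zinc ion between a pair of cysteines and a pair of histidines, and the fingers in a row read a stretch of DNA. Many also carry a KRAB domain, which recruits TRIM28 and, through it, the histone methyltransferase SETDB1 and HP1 proteins, and so silences transposable elements and nearby genes. Many KRAB genes arose by tandem duplication and lie side by side in clusters. Others carry a SCAN domain or no such domain, and some ZNF proteins bind RNA or act in ribosome quality control.

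The values of the ZNF genes were close in both arrays, with a small shift to the siP62 side. Their log2 values ran from 4.58 to 9.49 with a median of 6.23 in the siCONTROL array, and from 5.00 to 9.60 with a median of 6.31 in the siP62 array. Of the 242 genes, 150 (62.0%) were higher in the siP62 array, 87 were lower and 5 were equal, against 55.4% higher among all kept named genes. The median difference was 0.08, with the middle 50% of genes between -0.10 and 0.22. All 7896 kept named genes had a median difference of 0.04.

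**Figure D1:**
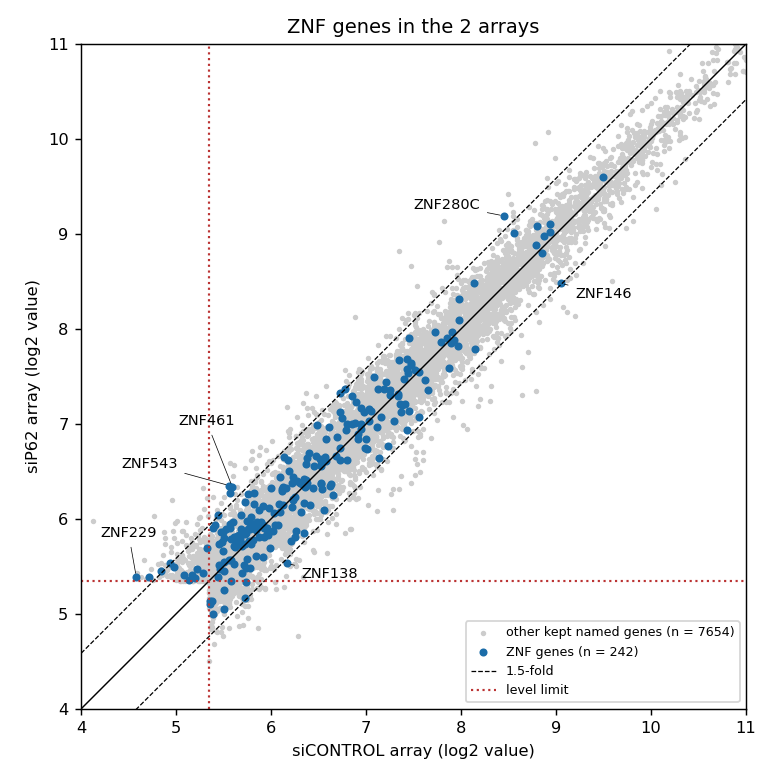
Log2 values of the siCONTROL array (horizontal) and the siP62 array (vertical) for 242 ZNF genes (blue) and the other kept named genes (grey), drawn between 4 and 11 on both axes. The solid line marks equal values, the dashed lines 1.5-fold differences and the dotted lines the level limit; 11 blue points lie on or above the upper dashed line and 1 lies below the lower one.

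Since the scatter between the arrays depends on the level, the ZNF genes were set beside named genes of like level. The kept genes were put into 20 bins of 394 or 395 genes by their mean level, and the genes other than ZNF were weighted so that each bin counted as much as it did among the ZNF genes. These genes had a median difference of 0.03, with the middle 50% between -0.13 and 0.19. The ZNF median thus lay 0.05 above that of genes of like level. The width of the middle 50% was 0.32 in both sets. Of the ZNF genes 141 (58.3%) lay above the median of their own bin, against 48.8% of all kept genes. A shift of this size is well inside the scatter of single genes, whose robust SD (scaled median absolute deviation) was 0.23 among the ZNF genes and 0.24 among those of like level. That scatter does not measure the precision of a median over many genes, which 1 array per group cannot give.

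In the siP62 array 40 ZNF genes (16.5%) were at least 25% higher and 17 (7.02%) were at least 20% lower, the same ratio in either direction. The background was 11.3% higher and 7.13% lower among all kept named genes, and 12% and 8.27% among those of like level. At 1.5-fold, 11 ZNF genes (4.55%) were higher, against 2.08% of all kept genes and 2.27% of those of like level. Only ZNF138 was 1.5-fold lower, 1 gene or 0.413%, against 1.6% of all kept genes and 1.78% of those of like level. None of the 242 reached 2-fold, a difference that 0.165% of all kept genes showed on the higher and 0.228% on the lower side. The split depended on centring. With the kept genes centred on their median, 31 were at least 25% higher and 22 at least 20% lower, and 6 were 1.5-fold higher and 3 lower. With this centring the genes of like level gave 9.12% at least 25% higher and 10.5% at least 20% lower, beside 12.8% and 9.09% of the ZNF genes, and 1.78% and 2.10% at 1.5-fold, beside 2.48% and 1.24%.

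**Figure D2:**
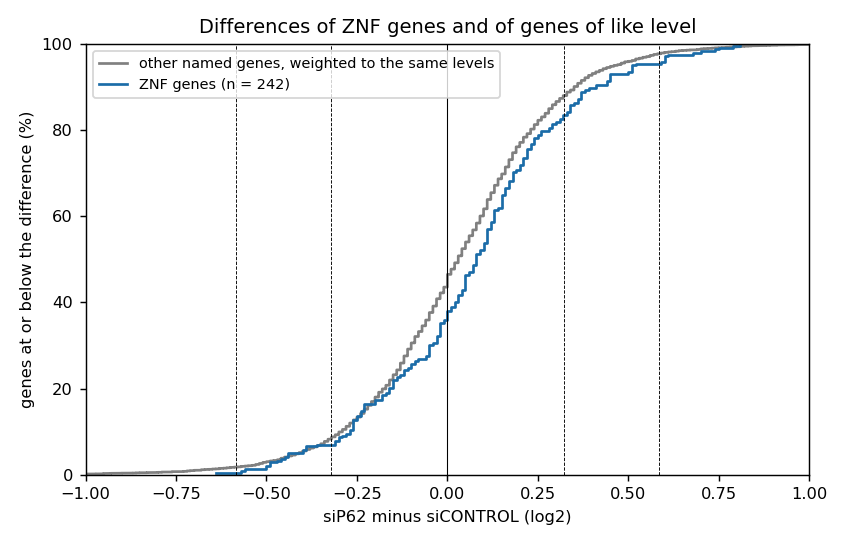
Share of genes (vertical, percent) at or below each difference of siP62 minus siCONTROL (horizontal, log2) for 242 ZNF genes (blue) and for other named genes weighted to the same levels (grey), with dashed lines at 25% higher, 20% lower and 1.5-fold in either direction. The blue curve runs to the right of the grey one over the middle of the range, with medians of 0.08 and 0.03.

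The genes were split by mean level into 3 sets, and in each the median lay above that of genes of like level. In the lowest set, 81 genes with means up to 5.88, the median difference was 0.11, and 17 genes were at least 25% higher and 5 at least 20% lower. In the middle set it was 0.05, with 10 and 6 such genes, and in the highest set, 80 genes with means from 6.74, it was 0.09, with 13 and 6. Genes of like level had medians of 0.02, 0.02 and 0.04. All kept genes gave 11.3% at least 25% higher and 7.13% at least 20% lower. Shares of genes of like level past these sizes were not computed for the 3 sets. The scatter was widest in the lowest level bin, with a robust SD of 0.385. Genes with a mean below the limit entered that bin only if their 2 values differed enough for 1 to reach 5.35. The scatter of that bin thus depends on the limit too. The level limit itself touched 20 of the genes. Of these, 12 met it in the siP62 array alone, which they could do only by being higher there, and 8 in the siCONTROL array alone. Of the 12, 7 were at least 25% higher, and of the 8, 4 were at least 20% lower. All 20 lay in the lowest set, so its counts and its median depend on the limit. Over the 222 genes at or above 5.35 in both arrays the median was 0.08, and 33 were at least 25% higher and 13 at least 20% lower, against 10.1% and 6.15% of the named genes held to the same limit. At 1.5-fold 7 of them were higher, against 1.53%, and 1 was lower, against 1.34%.

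Just inside the limit lay ZNF329 (5.36 in the siCONTROL and 5.13 in the siP62 array), ZNF765 (5.36 and 5.10), ZNF33A (5.14 and 5.36) and ZNF235 (5.20 and 5.38). Just outside it lay ZNF266 (5.12 and 5.33), ZNF510 (5.22 and 5.33), ZNF516 (5.12 and 5.33) and ZNF605 (5.33 and 5.09). The differences on both sides of the limit were alike in size. The 229 ZNF genes below it had medians of 3.79 and 3.86 and a median difference of 0.02. Among them single genes differed by as much as -0.87 (ZNF506, 4.06 and 3.19) and 1.33 (ZNF585B, 2.62 and 3.95). No detection call came with the values, so such low values may be background, and they are given without a fold. Over all 471 ZNF genes on the array the median difference was 0.06, and over all named genes it was 0.00.

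The highest differences were found for 11 genes past 1.5-fold. ZNF229 went from 4.58 in the siCONTROL array to 5.39 with siP62, and differed by 0.81. Its control value lay below the limit, as did those of ZNF419 (4.71 to 5.39), ZNF22 (4.84 to 5.45) and ZNF575 (4.94 to 5.54), so the size of these 4 differences is uncertain. ZNF543 went from 5.56 to 6.35 and was 1.73-fold higher. ZNF461 went from 5.59 to 6.34 (1.68-fold), ZNF383 from 5.57 to 6.27 (1.63-fold) and ZNF420 from 5.44 to 6.04 (1.52-fold). ZNF420 encodes a KRAB protein, also called APAK, that restrains the transcription factor p53. ZNF75A, another KRAB gene, had 6.72 and 7.32, a 1.52-fold higher level.

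ZNF280C and ZNF451 completed the genes past 1.5-fold. ZNF280C, which acts in the repair of DNA breaks, was far above the limit with 8.45 in the siCONTROL array, stood at 9.19 with siP62 and was 1.67-fold higher. Its bin had a robust SD of 0.19, and its difference of 0.74 lay 0.69 above the median of that bin. ZNF451, a SUMO ligase that extends SUMO chains, had 6.78 and 7.37, a difference of 0.59. A further probe set of ZNF451, with 5.10 and 5.49, differed by 0.39 in the same direction.

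The genes with the lowest differences were of several kinds. ZNF138, a KRAB gene, went from 6.17 in the siCONTROL array to 5.53 with siP62 and was 1.56-fold lower. ZNF146, whose protein is made almost entirely of zinc fingers, went from 9.05 to 8.48 and was 1.49-fold lower. Only 1 other of the 242 had a lower difference than its -0.57. ZNF746 encodes PARIS, a KRAB protein that the ubiquitin ligase parkin marks for degradation, and had 7.14 and 6.64. ZNF503, a developmental repressor, also differed by -0.50, from 6.35 to 5.85. ZNF449, a SCAN domain gene, went from 5.73 to 5.17, the latter below the limit, as was the siP62 value of ZNF697 (5.50 to 5.05).

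The other members of the lowest 10 were ZNF254 (7.43 to 6.94), ZNF740 (7.56 to 7.07), ZNF587B (6.56 to 6.09) and ZNF367 (7.23 to 6.77), each about 1.4-fold lower. The genes at both ends were picked for their differences, so their ranks support nothing. The 6 genes with the highest mean over both arrays were ZNF207, ZNF532, ZNF358, ZNF384, ZNF592 and ZNF574. Their differences ran from 0.08 to 0.28. Values of different probe sets depend on their probes and give no order of abundance between genes.

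Genes standing side by side were then compared, because KRAB genes arose in clusters. In the RefSeq order of protein-coding genes (GRCh38.p14), 133 of the 242 lay beside another ZNF gene and 109 were not found beside one. The 109 include the 2 transcribed pseudogenes, which had no place in this order. The medians of the 133 and the 109 genes were alike, 0.08 and 0.09. In either set 20 genes were at least 25% higher, and 11 and 6 were at least 20% lower. All kept genes gave 11.3% and 7.13% at these sizes. There were 6 unbroken runs of ZNF genes with at least 5 kept members, and they held 37 of the 242.

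The run from ZNF566 to ZNF793 held 3 of the 11 genes that were 1.5-fold higher. It has 20 genes, of which the array named 18, and 6 of these were kept. Of the 6, ZNF529 went from 5.57 to 5.90, ZNF461 from 5.59 to 6.34, ZNF420 from 5.44 to 6.04 and ZNF383 from 5.57 to 6.27. ZNF567 lay 0.20 above its control value of 6.80. ZNF569 went the other way, from 5.58 to 5.35. The median of the 6 was 0.47, or 0.43 above their level bins, the highest of the 6 runs. The 12 genes of the run below the limit went both ways, and the median over all 18 was 0.10, with 10 higher and 7 lower. ZNF585A (5.20 to 5.27) and ZNF585B, at the top of the open points in the plot of runs, stand between ZNF420 and ZNF383. Both lay below the limit. A further probe set of ZNF383, with 3.80 and 3.88, differed by 0.08.

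The other runs showed no such group of higher genes. In the run from ZNF283 to ZNF180, 9 of 20 genes were kept with a median of 0.15. Of these, 7 were higher and 2 lower, and only ZNF229 was at least 25% higher. ZNF45 (6.40 to 6.69) and ZNF224 (5.48 to 5.76) came next, while ZNF225, ZNF226 and ZNF112 differed by 0.01, -0.05 and -0.06. Over all 20 genes of this run, 14 were higher and 4 lower with the same median of 0.15.

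The run from ZNF786 to ZNF746 had a median of 0.05 over 7 kept genes, from 0.20 for ZNF212 (6.11 to 6.31) to -0.50 for ZNF746. The run from ZNF248 to ZNF33B had one of -0.06 over 5 genes, and went from 0.22 for ZNF33A to -0.40 for ZNF25 (6.65 to 6.25). ZNF33A and ZNF33B are close copies, yet differed by 0.22 and -0.30. The run from ZNF524 to ZNF580 lay at 0.08 over 5 genes and the run from ZNF551 to ZNF256 at 0.02 over 5, the latter with ZNF586 (0.32) and ZNF587B (-0.47) as its highest and lowest kept genes. In these 4 runs no kept gene was at least 25% higher, and 3, ZNF25, ZNF587B and ZNF746, were at least 20% lower. All kept genes gave 11.3% and 7.13% at these sizes.

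**Figure D3:**
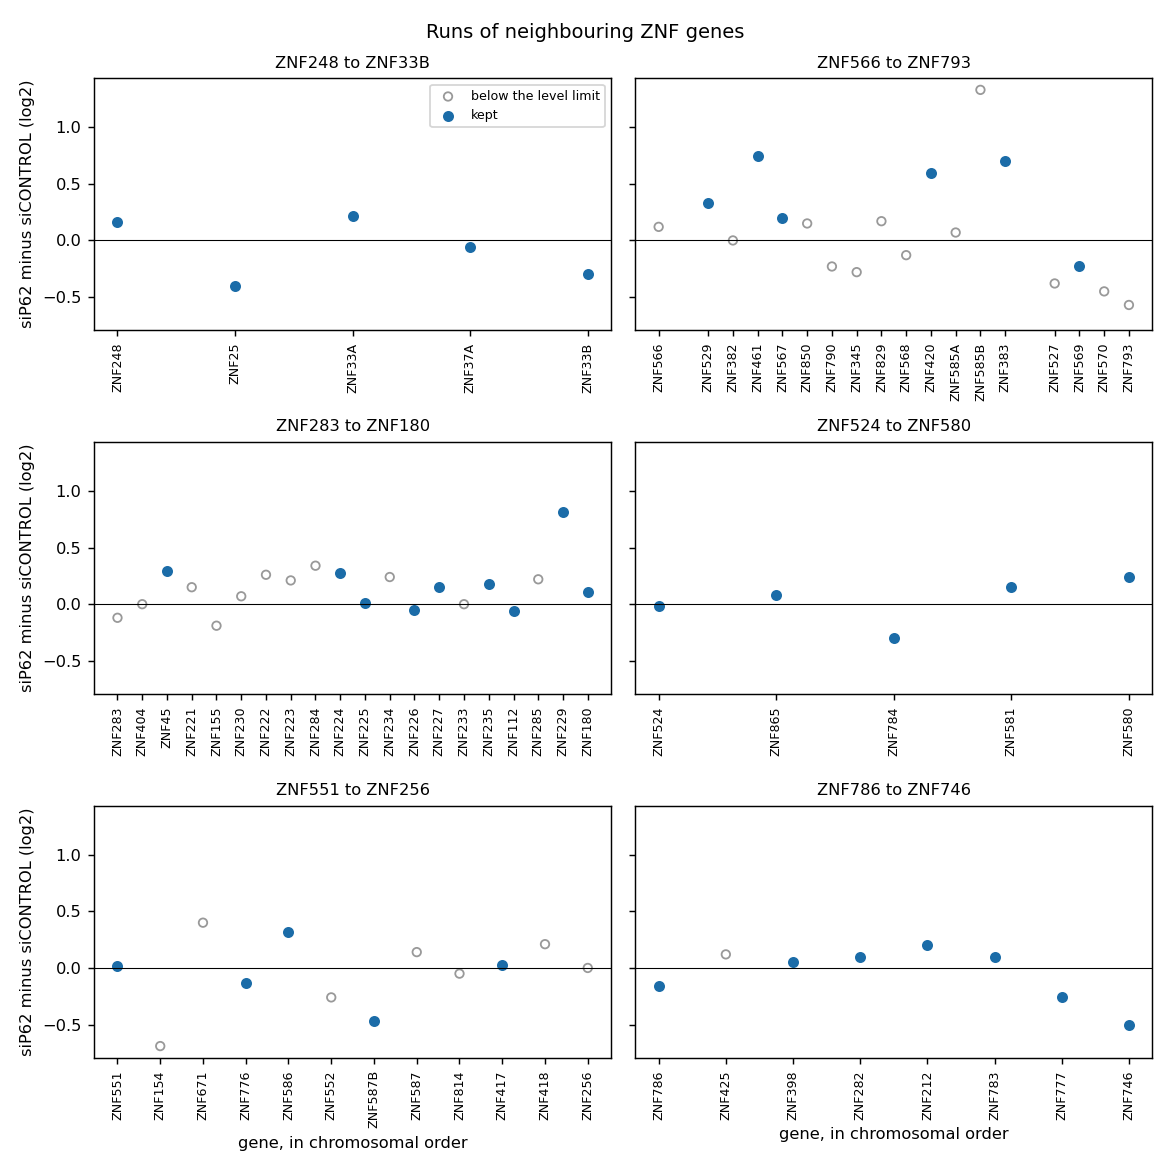
Difference of siP62 minus siCONTROL (vertical, log2) for the genes of 6 runs of neighbouring ZNF genes, in chromosomal order, with filled points for genes at or above the level limit and open points for those below it. In the run from ZNF566 to ZNF793 the filled points of ZNF461, ZNF420 and ZNF383 lie between 0.60 and 0.75, and in the other runs only ZNF229 reaches that height among the filled points.

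The promoters of the 3 high genes of the run are shown because all 3 match the same loosely written motif. The 250 bases before the start site are given 5′ to 3′ on the strand of the gene, from RefSeq on GRCh38.p14. Capitals mark matches to a loosened form of the element that the transcription factor ZNF143 is known to bind. It has 14 bases that read ACT, any 2 bases, A, any base and then TTCCCAG. ZNF461 lies at chr19:36666838-36667087 on the minus strand, ZNF420 at chr19:37078183-37078432 and ZNF383 at chr19:37217964-37218213, both on the plus strand.
ZNF461: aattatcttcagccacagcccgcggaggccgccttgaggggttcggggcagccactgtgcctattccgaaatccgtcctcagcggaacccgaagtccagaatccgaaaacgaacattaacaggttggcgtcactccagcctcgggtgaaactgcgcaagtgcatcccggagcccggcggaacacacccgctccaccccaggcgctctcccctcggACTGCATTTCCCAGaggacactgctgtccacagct
ZNF420: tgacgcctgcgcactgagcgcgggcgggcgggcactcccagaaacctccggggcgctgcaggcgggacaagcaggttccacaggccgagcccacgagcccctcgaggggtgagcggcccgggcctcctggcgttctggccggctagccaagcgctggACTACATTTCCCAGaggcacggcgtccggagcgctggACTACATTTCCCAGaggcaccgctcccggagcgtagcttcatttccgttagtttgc
ZNF383: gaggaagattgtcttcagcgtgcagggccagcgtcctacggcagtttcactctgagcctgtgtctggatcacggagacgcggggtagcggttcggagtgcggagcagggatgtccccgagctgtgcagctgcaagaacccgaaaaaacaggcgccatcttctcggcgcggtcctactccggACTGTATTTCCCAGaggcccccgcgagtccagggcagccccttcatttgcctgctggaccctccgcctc
The element stands once in the windows of ZNF461 and ZNF383 and 2 times in that of ZNF420. For contrast, the letters were not found in the promoter of ZNF543, which had the second highest difference (chr19:57320222-57320471, plus strand), nor in that of ZNF138, which had the lowest (chr7:64794178-64794427, plus strand).
ZNF543: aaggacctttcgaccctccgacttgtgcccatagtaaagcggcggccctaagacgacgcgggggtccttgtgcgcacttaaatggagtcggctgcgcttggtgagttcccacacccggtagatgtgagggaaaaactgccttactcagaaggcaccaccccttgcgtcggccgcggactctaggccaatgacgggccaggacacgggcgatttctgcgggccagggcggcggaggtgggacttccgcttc
ZNF138: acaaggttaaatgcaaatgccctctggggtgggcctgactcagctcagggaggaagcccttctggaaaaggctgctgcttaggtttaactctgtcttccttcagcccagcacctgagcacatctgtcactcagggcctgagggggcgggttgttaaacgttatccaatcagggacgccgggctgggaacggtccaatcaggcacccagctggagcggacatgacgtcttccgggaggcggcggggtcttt

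The motif was chosen after these promoters had been read, so its presence in them is a description. RefSeq promoters, 250 bases before to 50 after a start, were given for 210 of the 242 genes. The motif, searched on both strands, was found in 26 of the 210 (12.4%), against 80 of 6048 other kept genes (1.32%) and 0.669% of all 35116 promoter windows of that length. A narrower form of it, ACTACA, any base and then TTCCCAG, was found in 17 of the 210 (8.10%), 63 of the 6048 (1.04%) and 0.478% of all windows. Of ZNF461, ZNF420 and ZNF383, only ZNF420 held this narrower form. A gene with several windows was counted if any of them held the motif. The element lay between 202 and 6 bases before the start in these windows.

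Of the 9 kept members of the run from ZNF283 to ZNF180, 6 held the motif, and so did 5 of the 6 in the run from ZNF566 to ZNF793. The motif was not found for ZNF529, the other kept gene of the latter run, which differed by 0.33. No kept member with a promoter held the motif in the other 4 runs. The sites of both runs are set side by side with 8 bases on each side, read on the strand that carries the motif, with the one farthest from the start where a promoter holds several. The first 5 lines come from the run from ZNF566 to ZNF793 and the others from the run from ZNF283 to ZNF180.
ZNF461: cccctcggACTGCATTTCCCAGaggacact
ZNF567: cccctcggACTGCATTTCCCAGaggacact
ZNF383: tactccggACTGTATTTCCCAGaggccccc
ZNF420: agcgctggACTACATTTCCCAGaggcacgg
ZNF569: tgcgccgaACTACATTTCCCAGaggccttc
ZNF45: gctctggaACTACATTTCCCAGcatccccg
ZNF224: gcgtctggACTACACTTCCCAGaattccct
ZNF225: gcgtctggACTACATTTCCCAGaaatcccc
ZNF235: actcctggACTACAGTTCCCAGaatgctcc
ZNF112: gctcccaaACTACATTTCCCAGaattccta
ZNF180: gagccagaACTACAATTCCCAGaagcctcc
ZNF461 and ZNF567 show the same site, as their windows overlap and the element lies upstream of both starts on opposite strands, 22 bases before that of ZNF461 and 62 before that of ZNF567. ZNF461 differed by 0.75 and ZNF567 by 0.20. ZNF569, with a site of the narrower form, differed by -0.23.

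Genes with and without the element had similar medians. The 26 genes with it had a median difference of 0.11, with 19 higher and 7 lower, and the 184 without it had 0.08. Of the 26, 5 were at least 25% higher and none was 20% lower. The 5 were ZNF461, ZNF383, ZNF420, ZNF451 and ZNF883. These counts depend on the cut. ZNF286A and ZNF324, both at -0.31, fell just short of 20% lower. On the other side ZNF45 and ZNF565, both at 0.29, fell short of 25% higher. The promoters of ZNF461, ZNF383 and ZNF420 had been read before the motif was chosen, so counts that include these genes support nothing. ZNF883 met the level limit in the siP62 array alone. Of the 184, 33 were at least 25% higher and 14 at least 20% lower. All kept genes gave 11.3% and 7.13% at these sizes. Of the 11 genes that were 1.5-fold higher, 4 held it, namely ZNF461, ZNF383, ZNF420 and ZNF451, beside 12.4% of all 210 genes with a promoter. Of these 4, only ZNF451 lies outside the run from ZNF566 to ZNF793, whose promoters led to the choice of the motif. Without the run from ZNF566 to ZNF793 the remaining 21 genes with the element had a median of 0.10. Among other kept genes the medians were 0.08 with it and 0.04 without it. ZNF143, the factor known for this element, had values of 7.40 with siCONTROL and 7.47 with siP62.

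**Figure D4:**
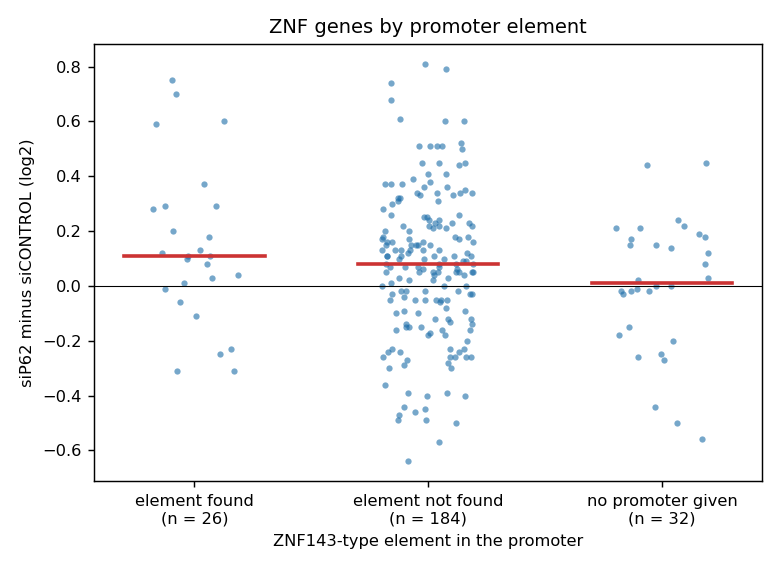
Difference of siP62 minus siCONTROL (vertical, log2) for ZNF genes with the ZNF143-type motif in a promoter window (n = 26), without it (n = 184) and with no promoter given (n = 32), each point 1 gene and each red bar a median. The medians of the first 2 groups are 0.11 and 0.08, and both hold genes above 0.5.

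Other short motifs were counted in the same windows on both strands. The ETS-type motif CCGGAAG was found in 41.4% of the 210 ZNF genes and 21.7% of the 6048 other kept genes, and in 10.3% of all windows. The CCAAT box CCAAT was found in 45.7% and 42.7%, with 34.6% of all windows. The GC box GGGCGG was found in 71.0% and 78.6%, with 45.0% of all windows, and the TATA box TATAAA in 4.29% and 7.77%, with 11.5%.

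TGACNNNGC, the core of the antioxidant response element read by NRF2, a factor that p62 is known to release from KEAP1, was found in 18.1% of the ZNF genes and 19.0% of the other kept genes, with 13.3% of all windows. The NRF1 motif, GCGCA, any base and then GCGC, was found in 17.1% and 13.4%, with 5.78% of all windows. AANATGGCG, read by YY1, was found in 7.14% and 8.52%, with 3.19%, and the cyclic AMP response element TGACGTCA in 4.76% and 3.64%, with 1.85%. Only the ZNF143-type and ETS-type motifs were found at about 2 times the share of other kept genes or more. The ZNF promoters had a median GC content of 62.7%, against 65.3% in the other kept genes.

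The differences of ZNF genes with known roles were read next, from 3 lists. Of 27 ZNF genes listed as factors that act without a KRAB domain, 23 were kept, with a median difference of 0.11 and 18 higher against 4 lower, where 55.4% of all kept genes were higher. ZNF331, one of the 23, does carry a KRAB domain, and the 22 without it had a median of 0.12 with 17 higher and 4 lower. Besides ZNF280C and ZNF451, 2 of them were at least 25% higher, ZNF281 (8.56 to 9.01), a partner of MYC in stem cells, and ZNF518B (5.57 to 5.95). The 4 at least 25% higher stand beside 11.3% of all kept genes. None was 20% lower, against 7.13%, and the lowest was ZNF687 (7.29 to 7.03), which works with ZMYND8 and ZNF592. ZNF592 itself differed by 0.11. ZNF384, a fusion partner in acute leukaemia, went from 8.80 to 9.08, but a further probe set went from 5.55 to 5.23.

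Other factors of this list differed by 0.22 or less. ZNF148 had 6.72 and 6.75, and ZNF217, a corepressor amplified in cancers, had 7.93 and 7.88. ZNF410, which keeps up the transcription of CHD4, had 5.91 and 6.13, while CHD4 had 8.93 and 8.92. ZNF24, a SCAN domain gene, had 7.16 and 7.07, and ZNF395 had 7.03 in both arrays.

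Of 12 ZNF genes whose proteins act on RNA, ribosomes or the spindle, 11 were kept, with a median of -0.10, 5 higher and 6 lower. On the higher side were ZNF385A (7.45 to 7.90), a p53 partner that binds RNA, ZNF830 (6.61 to 6.97) and ZNF598 (6.89 to 7.23), the ubiquitin ligase that senses collided ribosomes. Each was at least 25% higher. On the lower side ZNF638 went from 8.15 to 7.79, the only one at least 20% lower. All kept genes gave 11.3% and 7.13% at these sizes. ZNF638 binds RNA and helps the HUSH complex silence foreign DNA. ZNF106 (-0.29), ZNF326 (-0.28), a partner of RNA polymerase, and ZNF277 (-0.25) followed. ZNF622 (-0.14) and ZNF593 (-0.10), both of ribosome assembly, and ZNF207 (0.11), of the mitotic spindle, lay close to 0.

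Of 14 ZNF genes reported to bind or repress transposable elements, 4 were kept and 10 lay below the limit. ZNF248 differed by 0.16, ZNF33A by 0.22, ZNF765 by -0.26 and ZNF33B by -0.30. ZNF91 (2.62 and 2.23) and ZNF93 (3.28 and 3.28), the repressors of SVA and LINE elements, were far below the limit in both arrays.

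The KRAB corepressor machinery was listed with TRIM28, the HP1 genes, HUSH and NuRD subunits and SUMO genes. Others in the list include DNMT1, UHRF1, EHMT1, EHMT2, TRIM24 and TRIM33. Of 36 genes, the array named 27, and all 27 were kept; SETDB1 was among the 9 not analysed here. TRIM28, which binds the KRAB domain, had 10.71 with siCONTROL and 10.95 with siP62. The median difference of the 27 was -0.01, with 12 higher and 15 lower. Among them 1 was at least 25% higher and 3 were at least 20% lower, against 11.3% and 7.13% of all kept genes.

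The lowest of them was CBX1, the gene of HP1 beta, with 8.32 and 7.40, a 1.89-fold lower level. Its relatives CBX5 (-0.22) and CBX3 (0.19) went opposite ways. MORC2 (7.99 to 7.52), a partner of HUSH, and MPHOSPH8 (6.39 to 6.02), a HUSH subunit, were 1.39-fold and 1.29-fold lower. MTA1 (7.35 to 7.68), a NuRD subunit, was the one at least 25% higher. ATF7IP, the partner of SETDB1, differed by 0.27.

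The other C2H2 families gave medians on both sides of 0. The 34 kept ZBTB genes, which pair zinc fingers with a BTB domain, had a median of 0.01, or -0.01 relative to their level bins, with 4 genes at least 25% higher and 2 at least 20% lower. The 8 kept ZFP genes had 0.17, with 6 higher and 2 lower, and ZFP1 (7.27 to 6.74) was the lowest. The 12 KLF genes had -0.02, and ranged from KLF6 at -0.43 to KLF12 at 0.58 (6.81 to 7.39). Medians over 8 ZSCAN, 4 ZKSCAN and 4 PRDM genes were -0.01, 0.09 and -0.05. PRDM16, with 5.79 and 5.16, was the only gene of these 6 families past 1.5-fold, and its siP62 value lay below the limit. Whether the ZNF median differs from those of the other families was not tested.

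**Figure D5:**
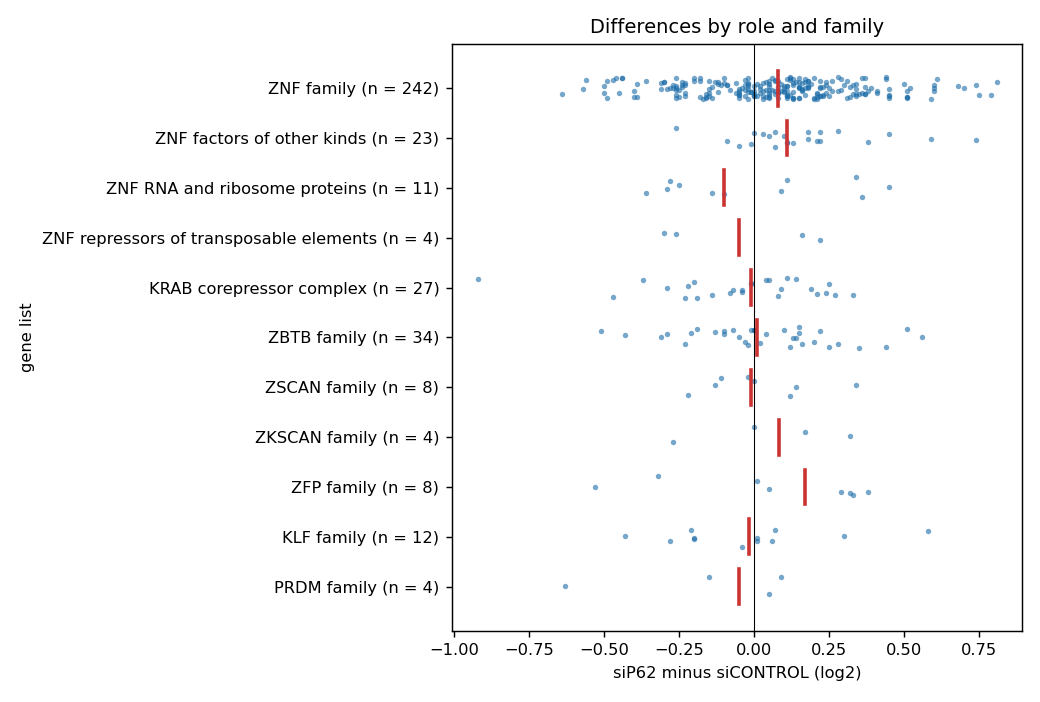
Difference of siP62 minus siCONTROL (horizontal, log2) for the kept genes of each role list and zinc finger family (rows), each point 1 gene and each red bar a median. The row of factors of other kinds holds those listed as acting without a KRAB domain. The 242 ZNF genes have a median of 0.08, the 11 RNA and ribosome genes one of -0.10, and CBX1, at -0.92, is the lowest point of the corepressor row.

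Of the 242 genes, 12 had more than 1 probe set, and in 7 of these the probe sets went opposite ways by a span of 0.3 or more. They were ZNF219, ZNF224, ZNF248, ZNF384, ZNF445, ZNF551 and ZNF865. ZNF445, a KRAB factor that guards imprinted genes, differed by -0.39 in the probe set used (6.26 to 5.87) and by 0.84 in another of low level (3.25 to 4.09). Many ZNF genes are near-identical copies, and probes were not checked against them, so the values of close copies such as ZNF587B, ZNF33A and ZNF33B are uncertain. Of 6 epithelial markers on the array 5 were kept, KRT18 at 11.95 and 11.97 and EPCAM at 7.38 and 7.59 among them. Of 16 markers of leukocytes, fibroblasts and endothelium, 8 were on the array and 3 were kept, namely CD68, CD14 and LUM (5.02 to 5.49), whose part in the results was not tested.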

How the data were processed

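Total RNA (100 ng) from A549 cells was read on 1 Affymetrix whole-transcript array per group, per the labels' protocols. The deposited table holds 48226 probe sets, each with a log2 value for either array. The submitters' processing notes name RMA and, as software, Transcriptome Analysis Console 4.0.2.15. Which arrays were normalized together, the genome build and the annotation used were not given in the sources read. Where RMA made the distributions alike, a shift of all genes would not be seen. The platform annotation named 16098 probe sets with 1 symbol and left 32128 unnamed here. All 242 members matched RefSeq gene IDs (GRCh38.p14), used for names, gene order and promoters. The probe set with the highest mean stood for a gene, and a gene was kept at 5.35 or more in either array.

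With 1 array per group no test was run. Differences were counted at 25% higher or 20% lower, 1.5-fold and 2-fold and set beside non-members weighted to the same 20 level bins (Python 3.11.15, pandas 2.3.3, numpy 2.4.6). The weighting was tried on simulated independent differences of the kept genes, without the level filter or links between genes. The smallest shift put in, other than none, was larger than the lead found here. Members, lists and counts were chosen with earlier results of these data known. Genes were named by rule: those 1.5-fold different, the 10 highest and 10 lowest differences, the 6 highest levels, the 4 on each side of the limit, role lists, runs of at least 5 and discordant probe sets; other names were chosen after their values were seen. Protein sequences were not used here, so grouping by KRAB motif was not run. The number of arrays limits the precision.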

Additional observations from a re-analysis of the deposited data

How the results depend on the processing

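The median difference of the ZNF genes, 0.08, stayed above 0 in all 10 alternatives run. It was 0.04 after subtraction of the median of all kept genes, 0.0451 after subtraction of a loess curve (span 0.3), 0.0525 after quantile normalization, and 0.06 without a filter. The lead over genes of like level, 0.05, was 0.03 with the filter at the 70th percentile (6.67), where 85 genes were left. The count at least 25% higher, 40, became 80 without a filter (471 genes) and 13 at the 70th percentile, and the count at least 20% lower, 17, became 47 and 6. Without a filter these were 17.0% and 9.98% of the ZNF genes, beside 11.1% and 10.5% of genes of like level. At the 70th percentile they were 15.3% and 7.06%, beside 10.9% and 7.07%. The 11 genes 1.5-fold higher became 6 with median or loess centring, 23 without a filter, 3 at the 70th percentile and 7 with both arrays at or above the limit. The 1 gene 1.5-fold lower became 3 with median or loess centring, 2 after quantile normalization, 7 without a filter and 0 at the 70th percentile. The cause was not tested; fewer or more genes enter under the other filters. The share above the median of the level bin lay between 55.3% and 59.5% in these 10 alternatives. Leaving out the run from ZNF566 to ZNF793, an alternative added after the data were seen, gave 8 genes 1.5-fold higher and kept the median at 0.08. Leaving ZNF331 out of its list was likewise chosen after the data were seen. The alternatives on a KRAB motif were not run. No paired analysis was possible because each group held 1 array.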
